A study of Mus musculus with 6 samples.

Results

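Immediate early response genes were measured in fetal mouse testes that lack Dmrt1 and in control testes. The genes were Fos, Fosb, Jun, Junb, Egr1, Ier2, Ier3, Atf3, Dusp1 and Zfp36, and their members on the array were all probe sets whose annotation gives exactly 1 gene symbol equal to one of these names. All 10 genes were found, of 18194 genes so annotated, on 11 of the 45101 probe sets, with a pair of probe sets for Jun and 1 for each of the others.

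RNA came from E13.5 embryonic gonads, when testis cords are newly laid down, of mice outcrossed to the 129S6/SvEvTac strain. The null group comprised 3 samples, homozygous for loss of Dmrt1 by title, description and design text, although the entry for genotype reads flox/flox. The control group comprised 3 samples, titled wild type but heterozygous for Dmrt1 by description, genotype entry and design text. Where the control samples are heterozygous, both groups carry a mutant Dmrt1 allele. No Cre driver is named in the labels, and they call the samples of each group biological replicates. A running number at the end of the descriptions is 1 to 3 in the null samples and 4 to 6 in the controls, so whatever order it records and the group cannot be told apart.

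Immediate early genes are transcribed within minutes of a stimulus, with no need for new protein, when kinase cascades activate factors already bound at their promoters, such as serum response factor, its Ets partners and CREB. Their products are transcription factors, among them the Fos and Jun proteins that pair to form AP-1, and brakes that end the response, such as the phosphatase Dusp1 and the RNA-binding protein Zfp36. Their transcripts are short-lived, and handling or dissociation of tissue can induce them. In bulk tissue, fewer cells of a type and less RNA per cell cannot be told apart.

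The promoters of 8 of the 10 genes were in the RefSeq table, all but Egr1 and Ier2. The 150 bases before the transcription start are shown for the pair of genes with the most negative differences, Fos and Ier3, and for Dusp1 and Zfp36, which hold the full CREB and serum response factor motifs. All are on GRCm38.p6 and are printed 5′ to 3′ on the strand of the gene, with matches to the searched motifs in capitals. They lie at chr12:85473740-85473889 on the plus strand for Fos, chr17:35821563-35821712 on the plus strand for Ier3, chr17:26508473-26508622 on the minus strand for Dusp1 and chr7:28379229-28379378 on the minus strand for Zfp36.
Fos: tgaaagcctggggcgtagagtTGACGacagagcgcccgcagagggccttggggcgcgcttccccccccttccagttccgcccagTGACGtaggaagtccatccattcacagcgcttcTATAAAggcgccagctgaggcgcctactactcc
Ier3: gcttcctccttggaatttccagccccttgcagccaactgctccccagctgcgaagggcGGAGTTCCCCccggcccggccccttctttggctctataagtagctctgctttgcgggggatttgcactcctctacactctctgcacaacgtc
Dusp1: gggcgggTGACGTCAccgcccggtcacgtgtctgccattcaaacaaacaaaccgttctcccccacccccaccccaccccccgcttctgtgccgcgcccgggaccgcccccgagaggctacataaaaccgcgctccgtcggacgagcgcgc
Zfp36: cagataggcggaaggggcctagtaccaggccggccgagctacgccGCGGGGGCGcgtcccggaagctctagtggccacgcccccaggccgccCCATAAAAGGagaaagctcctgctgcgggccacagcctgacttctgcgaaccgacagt

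Motifs were searched on both strands in the 250 bases before each start, and the shares given for comparison are over 27025 genes with any listed start. The short CREB site TGACG, which lies within the full site TGACGTCA, was found in Fos, Fosb, Junb, Atf3 and Dusp1, 5 of 8 members, and in 19.8% of genes. In Fos 1 of its copies begins at base -66 relative to the start, upstream of a TATAAA at base -33. TATAAA was found in 1 of the 8 members, Fos, and in 14.3% of genes. The full TGACGTCA was in Dusp1 alone among the 8, and in 1.77% of genes. The serum response factor motif, the CArG box, was in Zfp36 alone among the 8, and in 1.62% of genes. The NF-kappaB motif was in Fos, Fosb and Ier3 and in 4.46% of genes, and the Egr motif GCGNGGGCG in Fosb and Zfp36 and in 5.33%. The AP-1 motif TGANTCA was in 0 of the 8 and in 7.82% of genes. A match is a run of letters in this window and not a measured site. Sites farther than 250 bases before the start, or with other letters, were not searched, so a motif not found here may still be present.

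The values are intensities on a linear scale, which the authors had normalized between arrays with GCRMA, and tests were made on their log2. Array medians were 14.6 to 14.8 and upper quartiles 224 to 233. A probe set entered the test when its mean log2 value over the 6 arrays was at least 4, which 22082 did. Tests used limma with Benjamini-Hochberg adjustment over all of these, and a call needed an adjusted p under 0.05. Dmrt1 was lower in every null array, at 48.4, 26.9 and 23.8 in the nulls against 696, 1030 and 796 in the controls (limma adjusted p = 0.00388). Without control replicate 3 the adjusted p of Dmrt1 was 0.0558, and with the replicate number as a block it was 0.200, both above the call threshold of 0.05. All 11 Sertoli cell markers looked at, such as Sox9 and Amh, passed the filter, with summed intensities of 13670.3 to 14532 in nulls and 16643.4 to 18076.7 in controls. Of the 11 markers 6 had higher and 5 lower levels in the nulls, with a median log2 difference of 0.01. Cst9 alone was called, lower, where limma called 0.0272% of all tested probe sets. At an unadjusted limma p under 0.05 there were 3 of the 11, all lower, against 3.28% of all tested probe sets lower. The groups did not overlap for 3 of the 11 or 27.3%, against 12.8% of all tested probe sets. The 3′ to 5′ signal ratio of the Actb control probe sets, a sign of RNA quality, was highest in null replicate 3, at 2.75, with values of 1.91 to 2.15 elsewhere.

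No immediate early gene passed the test for a difference between null and control testes. Of the 10 genes, 8 passed the filter, and limma called 0 of the 8 at an adjusted p under 0.05, where it called 0.0272% of all tested probe sets. At an unadjusted limma p under 0.05 there were 2 of the 8, Fos and Ier3, both lower in the null testes, against 6.04% of all tested probe sets in either direction and 3.28% in this one. Fos had the most negative difference, a 1.53-fold lower level, and Ier3 was next, 1.37-fold lower. The null and control arrays did not overlap for 1 of the 8, Ier3, and for 12.8% of all tested probe sets, 6.06% with the nulls lower and 6.73% with the nulls higher. Of the 8 genes, 6 had a difference below 0, as had 48.1% of all tested probe sets. By the brightest probe set of each, 43.7% of the 11874 tested genes had a difference below 0. The median difference of null minus control was -0.13 on the log2 scale over the 8 genes. It was 0.0077 over all tested probe sets and 0.025 over all tested genes. The smallest adjusted p among the 8 was 0.773 and the largest 0.960.

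**Figure D1:**
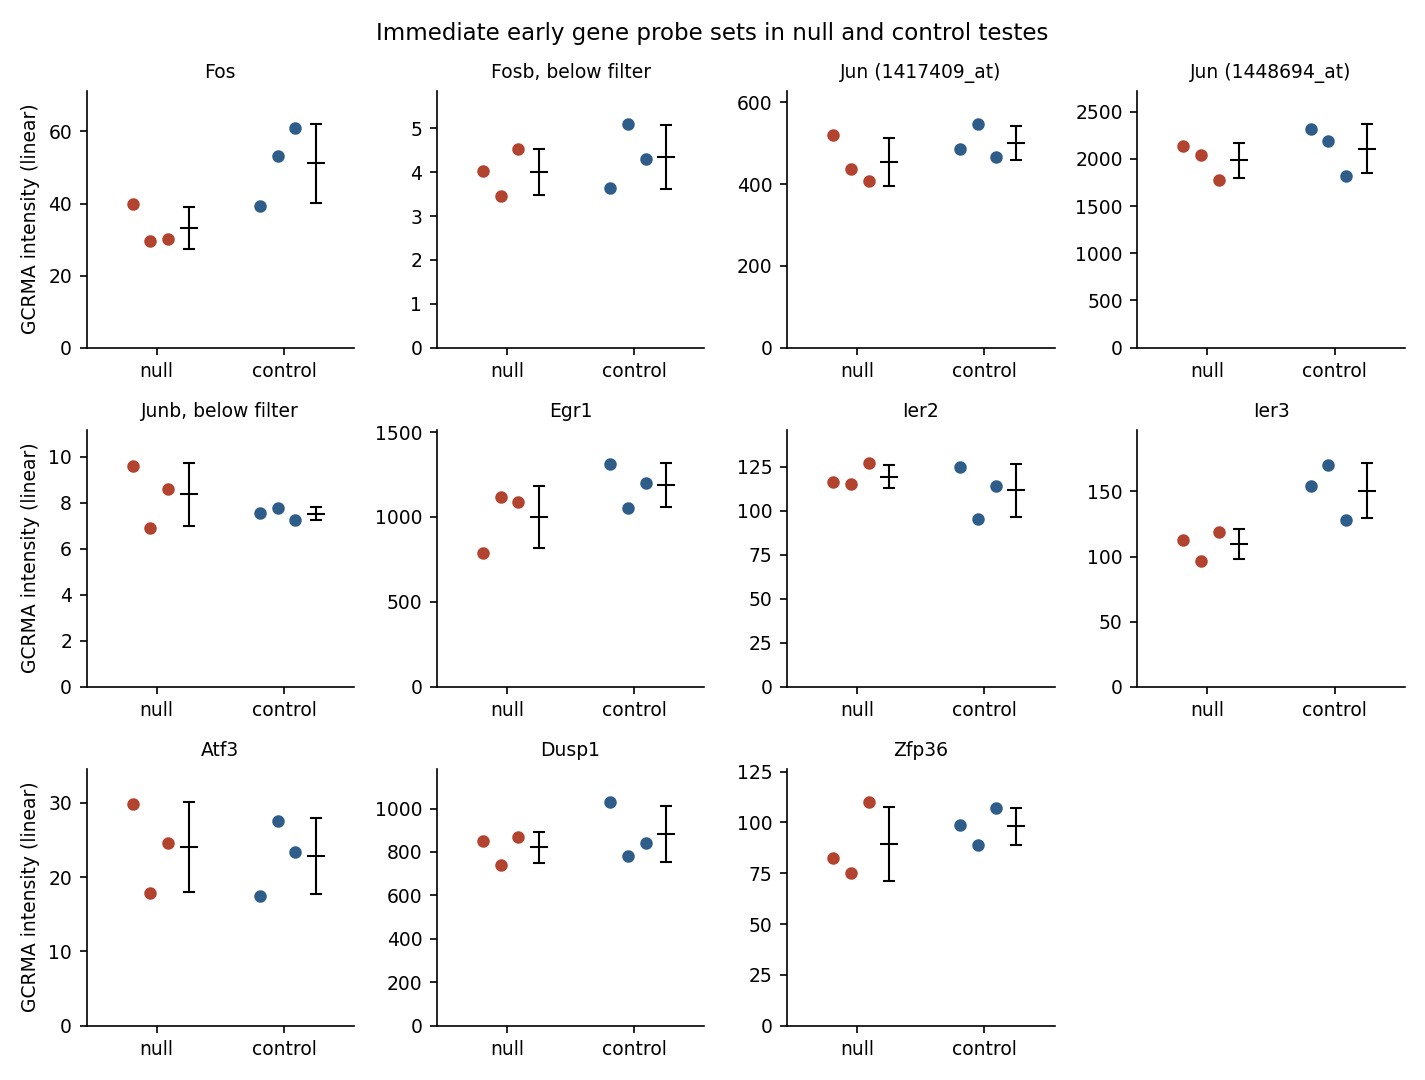
GCRMA intensity on a linear scale (vertical axis, from 0) in the 3 null and 3 control arrays, 1 panel for each of the 11 probe sets; points are arrays in the order of replicates 1 to 3, and bars give the mean and SD. Ier3 is the panel where every null array lies below every control array, and in the other panels the groups overlap.

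Fos encodes the basic leucine zipper protein that pairs with Jun proteins in AP-1. The Fos intensities were 39.8, 29.7 and 30.1 in null replicates 1, 2 and 3, against 39.4, 53.2 and 60.9 in control replicates 1, 2 and 3. Null replicate 1 lay just above control replicate 1, and the other null arrays lay below every control. The means were 33.2 ± 5.72 in nulls and 51.2 ± 10.9 in controls (SD, n = 3 each). On the log2 scale Fos differed by -0.61 (null minus control; standard error 0.21; limma adjusted p = 0.773). Its 95% interval, -1.11 to -0.12, is for Fos taken by itself and does not allow for the number of probe sets tested. With 16 added to every intensity, which shrinks differences of dim probe sets, the Fos difference was -0.44.

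Fosb, a relative of Fos that also pairs with Jun proteins, lay below the filter and was not tested. It gave 4.04, 3.46 and 4.52 in the nulls and 3.64, 5.10 and 4.31 in the controls. Between 7.62% and 25.7% of all probe sets on an array were dimmer than Fosb, so its values lie near the bottom of the scale.

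Jun is the main partner of Fos in AP-1, and both of its probe sets were tested. The brighter gave 2140, 2040 and 1780 in the nulls and 2320, 2190 and 1820 in the controls. Its log2 difference was -0.08 ± 0.11 (SE, limma adjusted p = 0.889). Replicate 3 was the lowest array within each group, and the groups overlapped almost fully. The other probe set gave 520, 436 and 408 in the nulls and 486, 547 and 467 in the controls, with a log2 difference of -0.14 ± 0.13 (SE, limma adjusted p = 0.835). The 95% intervals, -0.34 to 0.17 and -0.45 to 0.16, both spanned 0. With array weights the difference of the brighter probe set was 0.042, opposite in sign.

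Junb, a Jun relative with weaker activating capacity, lay below the filter and was not tested. It gave 9.57, 6.88 and 8.61 in the nulls and 7.56, 7.77 and 7.22 in the controls. The null arrays spread to both sides of the controls, which lay close together.

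Egr1 is a zinc finger transcription factor and among the genes most readily induced by ERK signalling. It gave 787, 1120 and 1090 in null replicates 1, 2 and 3, against 1310, 1050 and 1200 in control replicates 1, 2 and 3. Null replicate 1 was the lowest array and stood apart from the other nulls, which fell among the controls. The log2 difference was -0.26 ± 0.15 (SE), with a 95% interval of -0.62 to 0.096 (limma adjusted p = 0.778). Without null replicate 1 the Egr1 difference was -0.097.

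Atf3, a basic leucine zipper factor induced by stress, gave 29.8, 17.8 and 24.6 in the nulls and 17.4, 27.6 and 23.4 in the controls. Each group held 1 of the lowest arrays, null replicate 2 and control replicate 1. The log2 difference of Atf3 was 0.07 ± 0.25 (SE, limma adjusted p = 0.960), and its sign turned when null replicate 1 or control replicate 1 was left out.

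Ier2, a small nuclear protein of the early response, gave 116, 115 and 127 in the nulls and 125, 95.3 and 114 in the controls. The nulls lay close together within or just above the range of the controls. The log2 difference of Ier2 was 0.11 ± 0.15 (SE, limma adjusted p = 0.895).

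Ier3 encodes a stress-inducible protein that affects cell survival and ERK signalling. Ier3 gave 113, 96.7 and 119 in null replicates 1, 2 and 3, against 154, 170 and 128 in control replicates 1, 2 and 3. Every null array was below every control array, with null replicate 3 and control replicate 3 close to each other. The means were 110 ± 11.5 in nulls and 151 ± 21.2 in controls (SD, n = 3 each). The log2 difference was -0.46 ± 0.16 (SE), with a 95% interval of -0.83 to -0.08 (limma adjusted p = 0.773). Leaving out any 1 array gave an Ier3 difference of -0.57 to -0.36.

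Dusp1 is a nuclear phosphatase that turns off MAP kinases and is itself induced by them. It gave 851, 740 and 871 in the nulls and 1030, 781 and 840 in the controls. Control replicate 1 was the highest and null replicate 2 the lowest, and the rest were mixed. The log2 difference of Dusp1 was -0.10 ± 0.13 (SE, limma adjusted p = 0.886), and it was 0.015 without control replicate 1.

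Zfp36, or tristetraprolin, binds AU-rich elements and speeds the decay of short-lived transcripts. It gave 82.5, 75.3 and 110 in the nulls and 98.5, 88.7 and 107 in the controls. Null replicates 1 and 2 were the lowest arrays, whereas null replicate 3 was the highest. The log2 difference of Zfp36 was -0.15 ± 0.18 (SE, limma adjusted p = 0.875). Dropping null replicate 2 made it -0.038, dropping null replicate 3 made it -0.31, and dropping control replicate 3 made it -0.086. The probe sets of Zfp36 and Ier3 carry a suffix of the array's maker that can mark binding to more than 1 transcript of a gene.

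**Figure D2:**
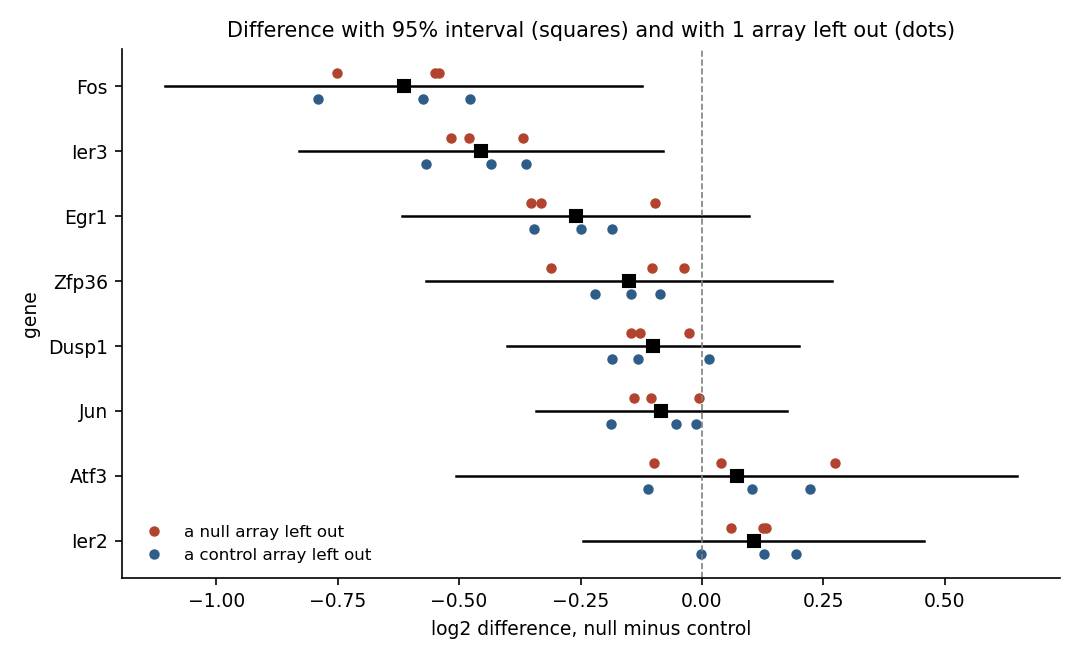
Log2 difference of null minus control (horizontal axis) for the 8 genes that passed the filter: squares with lines give the estimate and its 95% interval from all 6 arrays, and dots the estimate with a null array (above the line) or a control array (below it) left out. The intervals of Fos and Ier3 lie below 0, and the dots of Dusp1, Atf3 and Ier2 fall on both sides of 0.

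The 8 genes did not share one order of arrays. Null replicate 2 was the lowest array for 4 of them, Fos, Ier3, Dusp1 and Zfp36. Control replicate 1 was the highest array for 3, Jun, Egr1 and Dusp1. The highest array was a control for 5 of the 8 genes and the lowest was a null for 6. As the median over the 8 genes of log2 intensity minus its mean over the 6 arrays, the level was -0.013, -0.25 and 0.026 in null replicates 1, 2 and 3, against 0.15, 0.031 and 0.015 in control replicates 1, 2 and 3. Null replicate 2 was the array farthest from 0. Without null replicate 2 the median difference of the 8 genes was -0.07, without null replicate 3 it was -0.23 and without control replicate 2 it was -0.20. The full range of a gene over the 6 arrays was 0.38 to 1.04 on the log2 scale among the 8, against a median of 0.49 over all tested probe sets. Fos had the widest range, wider than 89.2% of tested probe sets, and Jun, by its brighter probe set, the narrowest.

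**Figure D3:**
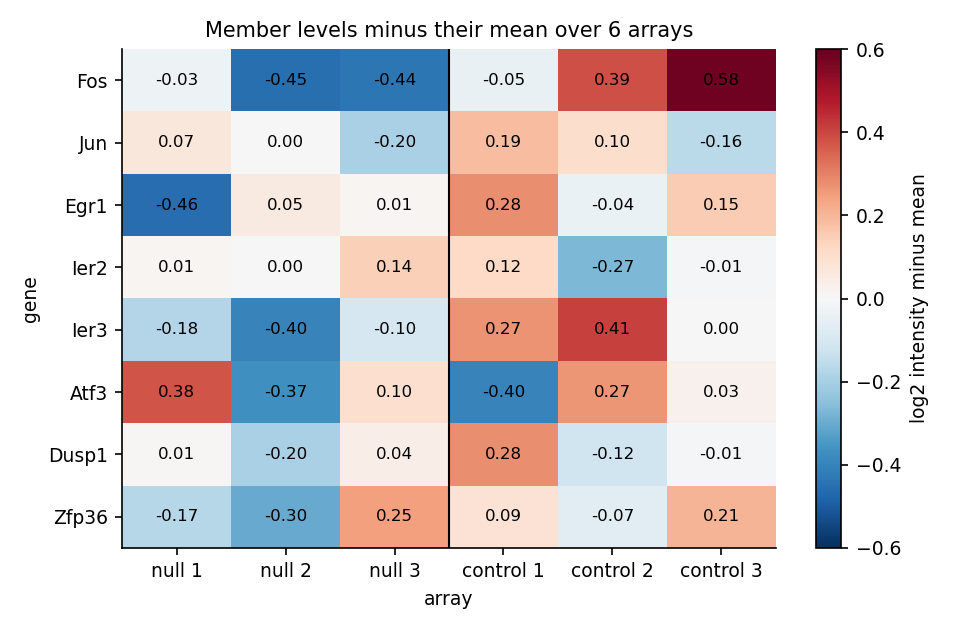
Log2 intensity minus the mean over the 6 arrays (colour and printed value) for the 8 genes that passed the filter (rows) in each array (columns, null left of the black line and control right of it). Fos and Ier3 are low in null replicate 2 and high in control replicate 2, whereas Egr1 is lowest in null replicate 1 and Atf3 in control replicate 1.

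No other gene of the same response passed the test. Of 24 other early response transcription factors, 19 passed the filter, 8 with a higher and 11 with a lower level in the nulls. The median difference of these factors was -0.04, and -0.091 to -0.016 with any 1 array left out. Limma called 0, against 0.0272% of all tested probe sets, with 1 at an unadjusted p under 0.05, against 6.04%. Klf6, a zinc finger factor, was that gene, with 2670, 2830 and 2700 in the nulls and 3110, 2960 and 3250 in the controls, groups that did not overlap. Its log2 difference was -0.18 ± 0.062 (SE, limma adjusted p = 0.773). Fosl2, another Fos relative, and Nr4a2, an orphan nuclear receptor, had differences of -0.27 and -0.25. As the mean over its tested probe sets Nr4a2 was at -0.35. The groups did not overlap for Klf6 and Nr4a2, 2 of the 19 factors or 10.5%, against 12.8% of all tested probe sets.

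Of 25 early response effectors, 19 passed the filter, 8 higher and 11 lower, with a median difference of -0.07. This median was -0.0057 with no filter, -0.0083 with the filter raised to 6, and -0.044 to 0.010 with any 1 array left out, above 0 without null replicate 3. Limma called 0, against 0.0272% of all tested probe sets, with 1 at an unadjusted p under 0.05, against 6.04%. The gene under that p, Gadd45g, a stress sensor with a role in testis formation in the mouse, was higher, with 196, 194 and 207 in the nulls and 167, 133 and 140 in the controls. The groups did not overlap for Gadd45g, 1 of the 19 effectors or 5.26%, against 12.8% of all tested probe sets. Its log2 difference was 0.45 ± 0.14 (SE, limma adjusted p = 0.773). Ccn2, a matricellular protein, had a difference of 0.28 and Rhob, a small GTPase, one of -0.14. Gadd45g had a difference opposite in sign to those of Fos and Ier3.

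No gene on the lists of those that end or start the response passed the test. Of 15 feedback phosphatases, Sprouty-type inhibitors and mRNA decay factors, 12 passed the filter, 5 higher and 7 lower. Limma called 0, against 0.0272% of all tested probe sets, with 0 at an unadjusted p under 0.05, against 6.04%. Zfp36l1, a relative of Zfp36, gave 5150, 5290 and 5360 in the nulls and 6050, 5460 and 5580 in the controls, and its log2 difference was -0.11 (limma adjusted p = 0.773). Spred2, an inhibitor of Ras and ERK signalling, was at -0.15 and Dusp10 at -0.41. As the mean over the tested probe sets of a gene, Zfp36l1 was at -0.22 and Spred2 at -0.35. The groups did not overlap for Zfp36l1 and Spred2, 2 of the 12 feedback genes or 16.7%, against 12.8% of all tested probe sets. Dusp10 spanned 19.8 to 40.2 in the nulls and 24.9 to 58.3 in the controls. Dropping null replicate 1 made its difference -0.70, dropping null replicate 3 made it -0.19, dropping control replicate 1 made it -0.68, and dropping control replicate 3 made it -0.066. Of 26 upstream kinases and transcription factors, 19 had a probe set with 1 symbol and all 19 passed the filter, 7 higher and 12 lower. Limma called 0 of them, with 1 at an unadjusted p under 0.05, against the same 0.0272% and 6.04% of all tested probe sets. That gene was Braf, a kinase upstream of ERK, at -0.36 (limma adjusted p = 0.773). Mrtfb, a coactivator of serum response factor, was at -0.17 and the ERK kinase Map2k2 at 0.19. By the same mean over probe sets Braf was at -0.25 and Map2k2 at 0.14. The medians were -0.02 for the feedback genes, from -0.11 to 0.033 with any 1 array left out, and -0.04 for the upstream genes, from -0.12 to -0.0039.

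Heat shock and other stress genes had a median difference of -0.13, and that of the immediate early genes was also -0.13. Of 20 genes 19 passed the filter, 3 higher and 16 lower, and limma called 0, with 3 at an unadjusted p under 0.05, all lower. Over all tested genes, by the brightest probe set of each, 43.7% had a difference below 0. Over all tested probe sets 48.1% had one, and limma called 0.0272%. The share with an unadjusted limma p under 0.05 was 6.04% in either direction and 3.28% lower. Ddit4, an inhibitor of mTOR signalling induced by stress, gave 2400, 2720 and 2620 in the nulls and 2980, 3380 and 3270 in the controls, with no overlap. Its log2 difference was -0.32 ± 0.075 (SE, limma adjusted p = 0.773). Txnip, a thioredoxin inhibitor, was at -0.41 and Hmox1, a haem oxygenase, at -0.28. As the mean over its tested probe sets Txnip was at -0.68. The groups did not overlap for Ddit4 and Hmox1, 2 of the 19 stress genes or 10.5%, against 12.8% of all tested probe sets. Leaving out null replicate 3 gave a median of the stress genes of -0.0027, leaving out null replicate 2 gave -0.038, and leaving out control replicate 2 gave -0.059. Null replicate 3 is the array with the high 3′ to 5′ ratio of Actb, whose part in this was not tested.

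**Figure D4:**
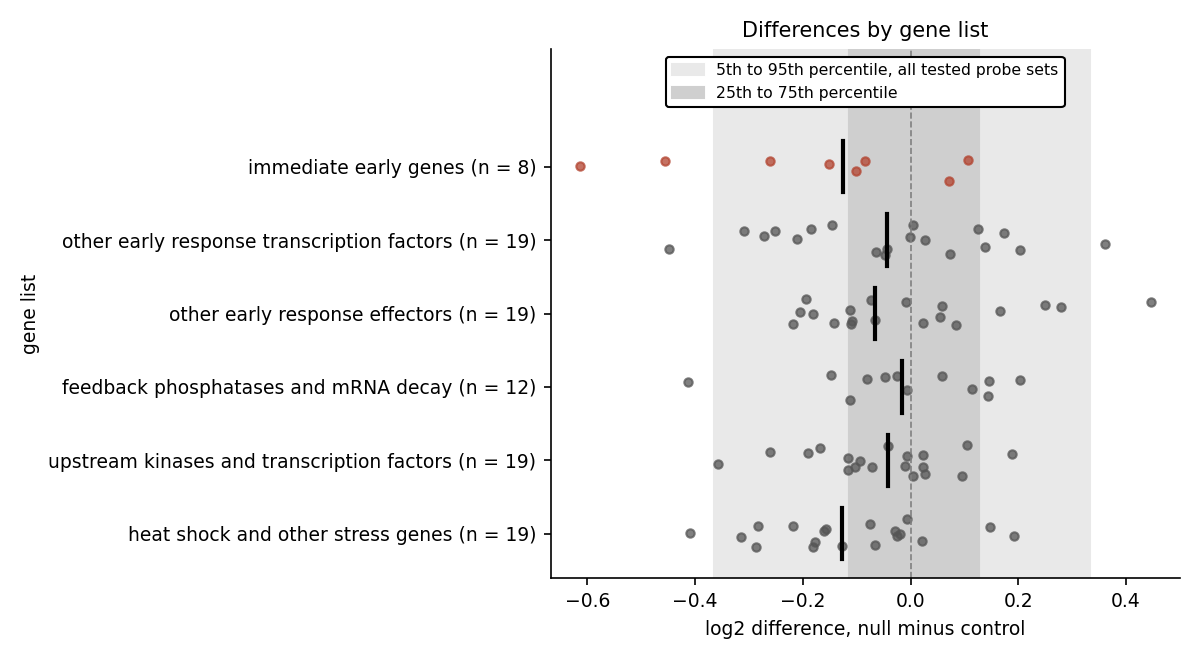
Log2 difference of null minus control (horizontal axis) for each gene that passed the filter, by gene list (rows, n genes each): dots are genes, vertical bars medians, and the shaded bands the middle ranges of all 22082 tested probe sets. Fos, Ier3, Klf4, Dusp10 and Txnip lie below the 5th percentile of -0.36, and Gadd45g and Maff above the 95th of 0.33.

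The genes whose profiles over the 6 arrays were nearest to that of Fos were Slitrk4, Fcrls, Pde4b, Usp27x and Col12a1, with root mean square differences of 0.0871 to 0.126 on the log2 scale. Fcrls, a receptor-like gene of macrophages and microglia, gave 27.6, 19.5 and 18.6 in the nulls and 23.6, 33.3 and 34.4 in the controls. Pde4b, a cAMP phosphodiesterase, gave 194, 175 and 147 in the nulls and 187, 287 and 329 in the controls. As for Fos, control replicate 1 lay among the nulls for Slitrk4, Fcrls and Pde4b, and control replicates 2 and 3 were above them. For Usp27x and Col12a1 control replicate 1, at 24.5 and 55.3, lay above every null array. None of these 5 genes was called by limma (adjusted p of 0.773 each).

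The genes nearest to Egr1 were Zfp292, Lin7c, Setd1b, Appbp2 and Nfat5, at root mean square differences of 0.0254 to 0.0364. Setd1b, a histone methyltransferase, gave 750, 1060 and 997 in the nulls and 1200, 990 and 1160 in the controls. Nfat5, a factor of the osmotic stress response, gave 353, 543 and 509 in the nulls and 612, 475 and 555 in the controls. In both, null replicate 1 was the lowest and control replicate 1 the highest array, as for Egr1, and all 5 had limma adjusted p of 0.774 to 0.811. Likeness of this kind is a description over 6 arrays chosen among 22082 probe sets.

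Markers of several cell types varied between the same arrays. Macrophage and leukocyte markers, of which 13 of 13 passed the filter, summed to 2399.2 to 2881.4 in nulls and 2749.2 to 3582.8 in controls. Their median level was -0.089, -0.17 and -0.23 in null replicates 1, 2 and 3, against -0.059, 0.047 and 0.39 in control replicates 1, 2 and 3. For Fos the same measure was -0.032, -0.45 and -0.44 in null replicates 1, 2 and 3, against -0.047, 0.39 and 0.58 in control replicates 1, 2 and 3. Control replicate 3 was the highest array for both, and the nulls 2 and 3 the lowest. Of the macrophage markers 2 were higher and 11 lower, with a median difference of -0.21. Limma called 0 of them, against 0.0272% of all tested probe sets. At an unadjusted limma p under 0.05 there were 2, both lower, against 6.04% of all tested probe sets in either direction and 3.28% lower. The groups did not overlap for 3 of the 13 macrophage markers or 23.1%, against 12.8% of all tested probe sets. Leaving out control replicate 3 gave a macrophage median of -0.10. Germ cell markers, 10 of 12, summed to 10305.5 to 13080.7 in nulls and 10451.6 to 17776 in controls, with control replicate 2 the highest. Of these, 2 were higher and 8 lower, with a median difference of -0.27, and -0.52 to 0.040 with any 1 array left out. Fetal Leydig markers, 4 of 8, summed to 3204 to 12950.0 in nulls and 4024 to 10320.0 in controls, and endothelial markers, 11 of 12, to 1908.2 to 3720.7 in nulls and 1366.4 to 3646.8 in controls. All 4 Leydig markers were lower, with a median difference of -0.53, and 10 of the 11 endothelial markers higher, with one of 0.19. With any 1 array left out these medians were -1.29 to -0.0015 and -0.25 to 0.50. The median level of the Leydig markers was 1.26, -0.65 and -1.40 in null replicates 1, 2 and 3. In control replicates 1, 2 and 3 it was -0.75, 0.76 and 0.78. Erythroid markers, 6 of 9, summed to 13420.3 to 18378.7 in nulls and 10863.2 to 19223.7 in controls. All 6 were higher, with a median difference of 0.35, and -0.069 to 0.79 with any 1 array left out. Interstitial and peritubular markers, 8 of 10, summed to 19448.9 to 20532 in nulls and 20919.9 to 21647.4 in controls, and mesonephric and coelomic markers, 6 of 8, to 8364.8 to 10076 in nulls and 7698 to 10615 in controls. The median differences were -0.06 for the former, 3 higher and 5 lower, and -0.04 for the latter, 3 higher and 3 lower. Among all these markers limma called Cst9 alone, and the part of cell composition in the values of Fos, Ier3 and Egr1 was not tested.

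**Figure D5:**
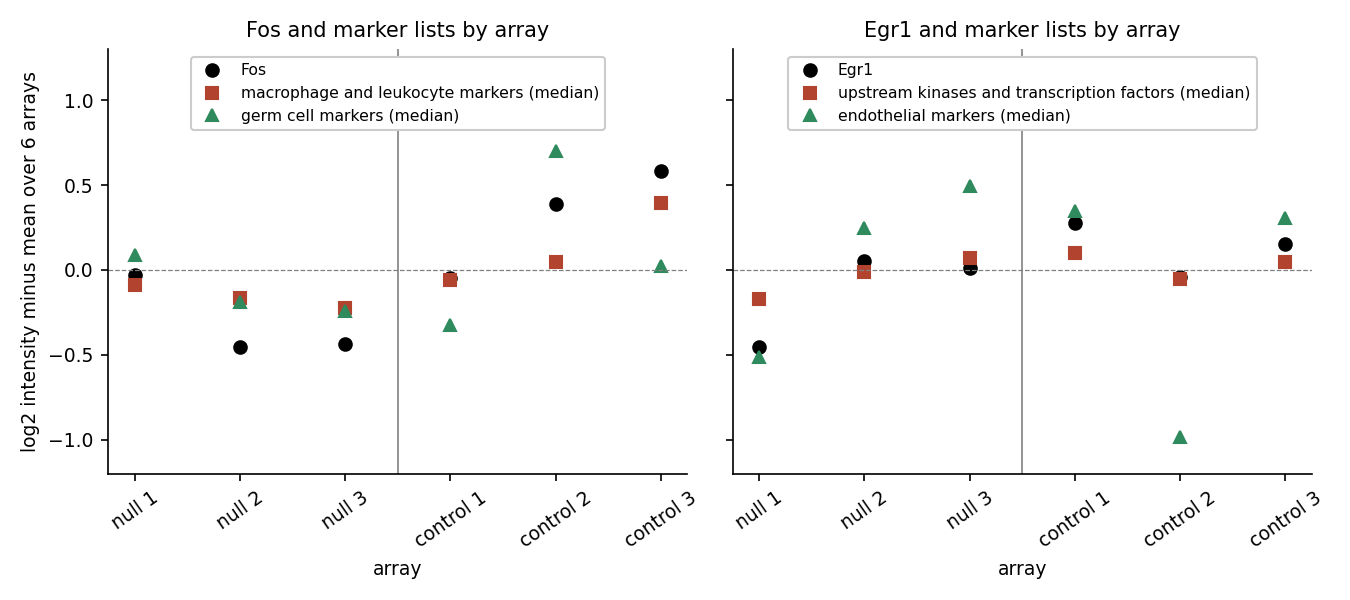
Log2 intensity minus the mean over the 6 arrays (vertical axis) in each array (horizontal axis, null left and control right of the line), for Fos with the medians of macrophage and germ cell markers (left) and for Egr1 with those of upstream kinases and factors and of endothelial markers (right). Fos and the macrophage markers are both highest in control replicate 3, and Egr1, like the upstream genes, is lowest in null replicate 1 and highest in control replicate 1. The feedback genes, not drawn, are also lowest and highest in those 2 arrays. Interstitial and peritubular markers, not drawn, are also highest in control replicate 3. The lists drawn were picked from 13 with no rule set in advance. Germ cell markers are instead highest in control replicate 2 and lowest in control replicate 1. Endothelial markers are highest in null replicate 3 and lowest in control replicate 2.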

How the data were processed

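Gonadal RNA was amplified before hybridization, per the labels' protocols. The authors deposited 1 intensity per probe set and array on a linear scale, to 3 significant digits, and the submitters' processing notes name GCRMA, without a version. This method estimates background from probe sequence and equalizes the arrays, so dim values depend on it most. Groups follow the sample titles. GEO's platform annotation gave 34958 probe sets 1 symbol, 932 several and 9211 none. 34754 matched RefSeq genes (GRCm38.p6) and 0 symbols changed.

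Intensities were taken to log2 with no constant added, filtered, and tested by limma 3.58.1 (R 4.3.3). Group was the only term, and eBayes used an intensity trend (4 residual degrees of freedom, 7.91 with the prior). Tests were two-sided. The brightest tested probe set stood for a gene. The code was tested on simulated data. With 3 arrays a group, their number limits the precision. The labels do not say from how many animals a sample came. Between any 2 arrays 301 to 451 values of 45101 were identical, which no copied array would give.

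The members and the gene lists were chosen with earlier results of these data known, so they carry no p of their own. Genes named besides the members were, by rule, Dmrt1, called list members, up to 3 per list with the smallest p, and the 5 nearest profiles to Fos and Egr1. Cst9 was named as a called marker. Klf4, Maff, Sox9 and Amh were named after their values were seen. Alternatives were other filters, normalizations, added constants, variance models, weights, a replicate block, single arrays left out and other choices of probe set. For the other lists and genes they were added after seeing the data.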

Additional observations from a re-analysis of the deposited data

How the results depend on the processing

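Limma called 0 of the immediate early genes tested in all 17 alternatives with a fit, the smallest adjusted p being 0.381, for Fos with array weights. The median difference of the genes that passed the filter was -0.23 to -0.07 with single arrays left out. It was -0.29 between null replicate 2 and control replicate 3, whose descriptions share a leading number, a single difference with no test. Of 142 values of single genes, 8 had the opposite sign to the reported value, none of them called: Jun at 0.16 and Atf3 at -0.39 between those 2 arrays, Jun at 0.042 and Atf3 at -0.056 with array weights, Ier2 at -0.0020 without control replicate 2, Atf3 at -0.098 without null replicate 1 and at -0.11 without control replicate 1, and Dusp1 at 0.015 without control replicate 1. The cause was not tested. With single arrays left out, Atf3 lay between -0.11 and 0.27, Ier2 between -0.0020 and 0.19, and Dusp1 between -0.18 and 0.015. Over all probe sets 6 were called, 0 to 4 with single arrays left out (2 without null replicate 2, 0 without control replicate 3, 1 each without null replicate 3, control replicate 1 or control replicate 2), and 1 without an intensity trend. The replicate numbers were not treated as pairs, since deviations of same-numbered arrays correlated at -0.59, -0.34 and 0.14. Null replicate 1 with control replicate 2 correlated at 0.58, and null replicate 2 with control replicate 1 at 0.46. The other pairs of unlike number lay between -0.40 and 0.30. With the replicate block 0 probe sets were called, among them 0 immediate early genes. Dim signal limits what could be seen of Fosb and Junb. Fos and Atf3 were also rather dim, and neither passed the filter raised to 6, which left 6 of the genes. On an array 57.38% to 63.45% of all probe sets were dimmer than Fos, and 52.1% to 57.29% dimmer than Atf3.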
